A study of Caenorhabditis elegans with 79 samples.

Results

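The math and bath genes of Caenorhabditis elegans are described here in mRNA and small RNA libraries of hrde-1 and morc-1 mutants and wild type. Members were the genes whose name starts with math- or bath- in the mRNA table, with a mean of at least 0.5 FPKM (fragments scaled to transcript length and library size) over its 12 libraries, together with the genes so named in the small RNA table. There were 69 such genes, 41 bath and 28 math, of 21976 genes in the mRNA table and 2434 features in the small RNA table. Of the 69, 66 are in the mRNA table, 32 are in the small RNA one and 29 are in both. A further 27 of the 93 math and bath genes in the mRNA table were under the level, 4 of them listed at 0 in every library. The level left math-32 (0.561 FPKM) and math-15 (0.627 FPKM) inside and math-10 (0.476 FPKM) and math-21 (0.254 FPKM) outside.

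MATH stands for the meprin and TRAF homology domain, and BATH proteins join it to a BTB domain. BTB-MATH proteins are known as substrate adaptors of ubiquitin ligases built on the cullin CUL-3: the MATH domain holds the substrate and the BTB domain holds the cullin. The best-known worm adaptor of this kind is MEL-26, which hands the microtubule-severing protein MEI-1 to the ligase after meiosis. Small RNAs of the 22G class, made by RNA-dependent RNA polymerases on target transcripts, are carried in the germline nucleus by the Argonaute HRDE-1, which directs silencing of the matching genes, and MORC-1, a GHKL ATPase, acts in the same nuclear pathway.

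The study asked what changes in morc-1 mutants over generations at a raised temperature, with hrde-1 mutants and wild type beside them. The groups were hrde-1(tm1200), morc-1(tm6048) and the wild-type strain N2 (WT), each late and early. Animals of every group were kept at 25 °C from the P0 generation and came from stocks kept at 20 °C. Early means generation F1 and late generation F4, or F5 for replicate 3 of the small RNA. Whole animals were used, which one label calls young adults and the extraction text gravid hermaphrodites, and each mutant strain carries 1 allele. There were 2 mRNA libraries per group, and 2 hrde-1, 3 morc-1 and 3 WT small RNA libraries per stage. In whole-animal RNA, fewer cells of a type and less RNA per cell cannot be told apart. No label says that replicates were separate cultures, so every p-value speaks only of the spread among the libraries.

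The full read depth of the mRNA and small RNA libraries is unknown. Reads recovered over the listed small RNA features alone summed to 54599 to 2274591 per library. The lowest sum was in replicate 1 of morc-1 early, where 1 read was worth 21.7 normalized reads. In the small RNA table, 2 columns of morc-1 late share 1 header; these libraries therefore have no known replicate number, 1 of them may be F5, and they are called library a and library b. The mutated morc-1 gene was at 9.77 and 11.999 FPKM in morc-1 late, against 24.3 and 36.2 FPKM in WT late; morc-1 early libraries had 13.7 and 14.1 FPKM, against 54.2 and 54.9 FPKM in WT early. For hrde-1, which the table lists under its other name wago-9, hrde-1 late libraries had 68.5 and 81.1 FPKM and WT late libraries 97.2 and 102.1 FPKM, while hrde-1 early libraries had 134 and 151 FPKM and WT early libraries 198 and 234 FPKM. The labels do not say which sequence either allele removes. Summed intestine markers were 3533 to 15094 FPKM, germline markers 784 to 1693 FPKM and muscle markers 679 to 1615 FPKM, while 10 markers of early embryos summed to 1.56 to 5.10 FPKM.

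By the gene table of RefSeq assembly WBcel235, all 69 members were found, 57 of them on chromosome II and 13 of them pseudogenes. Of the 93 family genes, 58 lie in 14 runs in which no other gene of that table stands between them, the longest with 13 genes from math-15 to math-12. Among these runs are bath-12, bath-13 and bath-18, then bath-24, math-1 and bath-14, the pair bath-19 and bath-20, and bath-23, bath-10 and bath-9. Reads shared between similar copies could be divided among them in ways the sources used here do not state, so values of close relatives are uncertain to that degree.

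The levels of mRNA, read as FPKM, covered a wide range. Of the 60 members in the first block of the mRNA table, 16 averaged at least 10 FPKM, 39 lay between 1 and 10 FPKM and 5 were under 1 FPKM. Their highest library exceeded their lowest by 1.58 to 41.9 times, with a median of 4.20 times, leaving out 2 genes with a library at 0. The most abundant of them were bath-42 (mean 130.02 FPKM), bath-41 (104 FPKM), bath-40 (62.5 FPKM) and math-33 (61.4 FPKM). The math-33 gene encodes a USP7-type deubiquitinase known to act on the transcription factor DAF-16. In math-33, hrde-1 late libraries had 36.8 and 71.9 FPKM, morc-1 late libraries 69.4 and 74.7 FPKM and WT late libraries 23.9 and 59.7 FPKM. Both morc-1 late libraries lay above those of WT late, hrde-1 late overlapped both other groups, and no difference passed the test. For bath-40, hrde-1 late libraries had 57.7 and 61.7 FPKM, morc-1 late libraries 62.7 and 73.4 FPKM and WT late libraries 46.9 and 54.4 FPKM, and no difference passed the test.

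**Figure D1:**
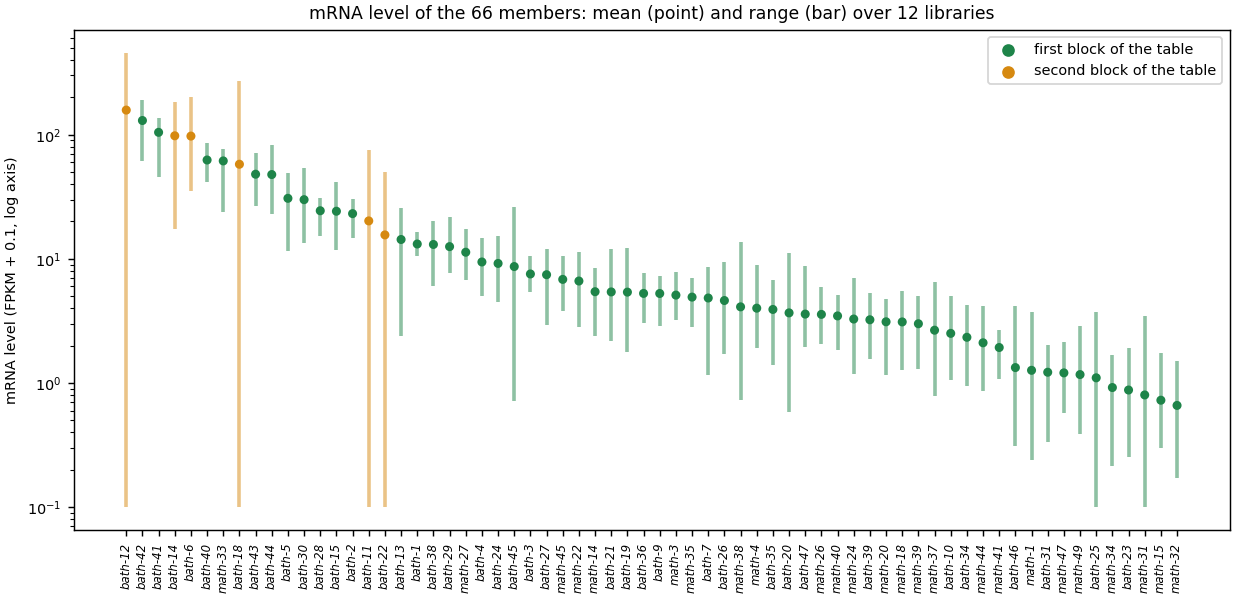
Mean FPKM (points) and lowest to highest library (bars) of the 66 math and bath genes over the 12 mRNA libraries, on a log axis after adding 0.1. Genes of the second block of the table, in orange, have wide bars, and 4 of these 6 reach 0 in at least 1 library.

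The other 6 members, bath-6, bath-11, bath-12, bath-14, bath-18 and bath-22, stand in a second block of 1462 rows at the end of the mRNA table, of which 1150 are pseudogenes in RefSeq. Their values were unsteady between replicates. The clearest case was bath-18, which was listed at 0 and 230 FPKM in hrde-1 late, 0 and 271 FPKM in hrde-1 early, 192 and 0 FPKM in morc-1 late, and 0 in both libraries of the other 3 groups. Likewise bath-12 was at 147 and 156 FPKM in hrde-1 late and 87.0 and 112 FPKM in morc-1 late, against 0 and 88.6 FPKM in WT late. None of these 6 passed the test in any comparison, and their large differences carry standard errors of up to 3.05 on the log2 scale between groups.

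In hrde-1 mutants, a few members rose in mRNA while most did not pass the test. Differences were fitted with limma on log2(FPKM + 1), which understates the change of genes near or under 1 FPKM, and a gene was called at a Benjamini-Hochberg adjusted p under 0.05 over the 13850 genes tested. In hrde-1 late against WT late, 4 of 66 members rose and 0 fell, where 8.13% of all genes tested rose and 1.65% fell, so the members' share of rises was near that of all genes. These 4 were bath-45, bath-13, bath-20 and math-1. In hrde-1 early against WT early, 3 members rose, bath-45, math-1 and bath-13, and 0 fell, where 0.787% of all genes tested rose and 0.0289% fell.

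Among the members called, bath-45, on chromosome II outside the runs, had the largest limma difference at each stage. Second-block genes that did not pass had larger ones, bath-12 (4.01) and bath-18 (3.93) late and bath-11 (5.23) and bath-18 (4.04) early. The bath-45 gene had 13.1 and 25.95 FPKM in hrde-1 late, against 0.620 and 0.992 FPKM in WT late. Its limma difference was 3.44 ± 0.37 (SE, log2, adjusted p = 8.44e-04). In hrde-1 early it had 18.5 and 22.5 FPKM, against 1.04 and 1.18 FPKM in WT early, a difference of 3.34 ± 0.37 (limma adjusted p = 0.00142). Every hrde-1 library was above every WT library at both stages, and bath-45 passed with any 1 library left out. The bath-45 mRNA was thus the one member whose rise in hrde-1 rested on no single library.

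For bath-13, hrde-1 late libraries had 11.4 and 25.3 FPKM, against 2.28 and 5.44 FPKM in WT late (1.97 ± 0.43, limma adjusted p = 0.0166). In hrde-1 early it had 21.03 and 25.5 FPKM, against 3.33 and 4.68 FPKM in WT early (2.29 ± 0.43, limma adjusted p = 0.0409). The mutant libraries did not overlap those of WT at either stage. For bath-20, hrde-1 late libraries had 3.06 and 8.51 FPKM, against 0.489 and 1.15 FPKM in WT late (1.80 ± 0.40, limma adjusted p = 0.0190). In hrde-1 early bath-20 had 11.1 FPKM in each library, against 1.63 and 2.24 FPKM in WT early, which gave 2.05 ± 0.40 but an adjusted p of 0.0543 in limma. Its immediate neighbour bath-19 had 3.36 and 7.09 FPKM in hrde-1 late, against 2.53 and 4.08 FPKM in WT late, and those groups overlapped.

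The lowest of these genes was math-1, at 1.06 and 2.23 FPKM in hrde-1 late, against 0.170 and 0.221 FPKM in WT late (1.11 ± 0.29, limma adjusted p = 0.0397). In hrde-1 early it had 3.40 and 3.62 FPKM, against 0.138 and 0.227 FPKM in WT early (1.93 ± 0.29, limma adjusted p = 0.0121). With bath-18 and math-32 it is 1 of 3 members that passed the level of 0.5 FPKM only through the mutant libraries, so its place among the members already required a difference. Without replicate 1 of hrde-1 late, which was the higher of the late libraries for all 4 genes, only bath-45 passed. Without replicate 2 of WT late, bath-13 (adjusted p = 0.0881), bath-20 (0.0992) and math-1 (0.110) did not pass in limma, and without replicate 1 of WT late math-1 did not (0.135). At the early stage math-1 and bath-13 did not pass with any 1 of the 4 libraries left out, and bath-13 did not pass with a pseudocount of 0.1 (limma adjusted p = 0.0517), without a filter (0.0764) or with a minimum mean of 10 FPKM (0.0741).

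**Figure D2:**
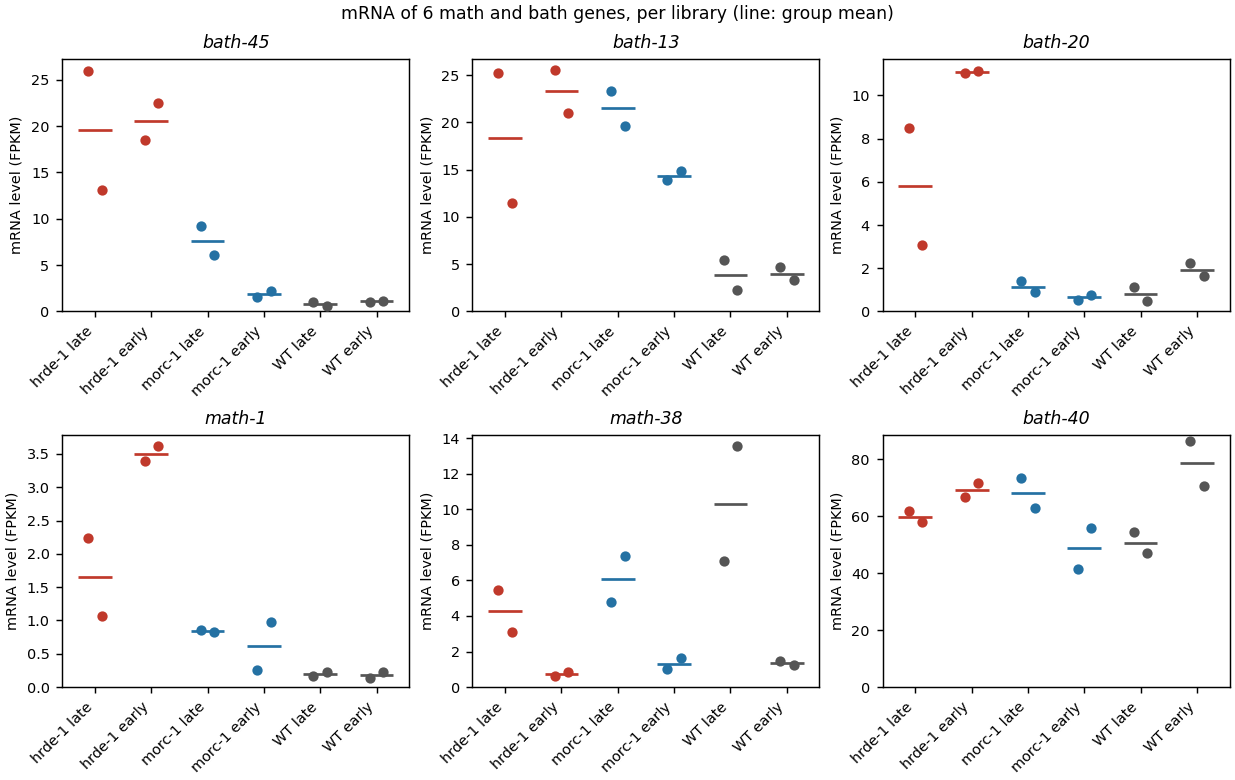
FPKM in each mRNA library (points) with the group mean (line) for 6 math and bath genes, from hrde-1 late on the left to WT early on the right. The hrde-1 libraries of bath-45, bath-13, bath-20 and math-1 lie above those of WT at both stages, math-38 is higher late than early in WT, and bath-40 is an abundant member that passed no test.

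Among the 62 members not called in hrde-1 late, differences ran in both directions, and the median of the 66 was -0.01 against 0.14 over all genes tested. Over all genes the calls were 1126 higher and 228 lower as deposited, and 766 higher and 633 lower after quantile normalization of the libraries. Among the members it gave 3 higher and 4 lower calls: math-1 was then not called (0.69, limma adjusted p = 0.083), and bath-46, bath-47, math-22 and math-38 were called lower. As deposited these 4 had differences of -1.14, -1.10, -0.72 and -1.08 in limma and did not pass. The hrde-1 late libraries also differed in markers of other cells: 12 of 31 tested sperm genes were higher than in WT late, and the 32 on the list, 1 of them at 0 in every library, summed to 1318 and 5347 FPKM against 76.3 and 826 FPKM in WT late. Of 12 intestine markers 4 were lower, with sums of 5279 to 11904 FPKM in hrde-1 late and 12437 to 15094 FPKM in WT late, and of 7 hypodermis markers 3 were lower (219 to 3384 FPKM in hrde-1 late and 541 to 2342 FPKM in WT late). Oocyte markers summed to 4917 to 9488 FPKM in hrde-1 late and 3373 to 3808 FPKM in WT late, with 1 of 12 called higher. Germline markers summed to 1019 to 1074 FPKM in hrde-1 late and 784 to 1001 FPKM in WT late, with 0 of 10 called. The part of these markers in the members' values was not tested.

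In morc-1 mutants 1 member passed in mRNA. In morc-1 late against WT late, 1 of 66 members rose, bath-45, and 0 fell, where 0.267% of all genes tested rose and 0.00722% fell. The bath-45 gene had 6.04 and 9.18 FPKM in morc-1 late, against 0.620 and 0.992 FPKM in WT late (2.24 ± 0.37, limma adjusted p = 0.0495). This call sat at the threshold and did not hold with any 1 of the 4 libraries left out, where the limma adjusted p was 0.128 to 0.466, although the libraries of the groups did not overlap. Next came bath-13, with 19.6 and 23.3 FPKM in morc-1 late against 2.28 and 5.44 FPKM in WT late, which gave 2.28 ± 0.43 but an adjusted p of 0.0871 in limma; with quantile normalization it was called too. Marker sums differed between these groups without overlap: intestine markers summed to 7967 to 8072 FPKM in morc-1 late and 12437 to 15094 FPKM in WT late, and muscle markers to 976 to 1101 FPKM in morc-1 late and 1397 to 1615 FPKM in WT late. Oocyte markers summed to 4598 to 4847 FPKM in morc-1 late and 3373 to 3808 FPKM in WT late, and germline markers to 1197 to 1233 FPKM in morc-1 late and 784 to 1001 FPKM in WT late. None of the 12 intestine, 8 muscle, 12 oocyte and 10 germline markers was called in limma, and their part in the bath-45 value was not tested. In morc-1 early against WT early 0 of 66 members were called by limma, with 2 higher and 3 lower at an unadjusted p under 0.05, where 0.0722% of all genes rose and 0% fell.

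Between the mutants, 0 of 66 members were called in hrde-1 late against morc-1 late by limma, where 3.95% of all genes tested were higher and 0.765% lower, and 4 members were higher and 0 lower at an unadjusted p under 0.05. Over all genes the calls were 547 higher and 106 lower as deposited, and 449 higher and 268 lower after quantile normalization, where bath-45 was the 1 member called. With the replicate number fitted as a block within each generation, 3 members were higher and 0 lower. Over all genes that fit called 1112 higher and 298 lower. Closest in the main fit was bath-20, with 3.06 and 8.51 FPKM in hrde-1 late against 0.910 and 1.40 FPKM in morc-1 late (1.54 ± 0.40, limma adjusted p = 0.0606). For bath-45 the same difference was 1.20 ± 0.37 (limma adjusted p = 0.112). With 2 libraries per group, these values do not show that the mutants are alike.

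From early to late, the count of members called in WT depended on how replicates were modelled. With the replicate number fitted as a block within each generation, 5 members were higher and 14 lower in WT late against WT early. Over all genes that fit called 1171 higher and 4066 lower. It takes the spread between replicate numbers out of the error, so its p-values for late against early do not measure that spread. In the main fit, which has no block, math-38 rose and 0 members fell, where 2.05% of all genes tested rose and 1.07% fell. It had 7.08 and 13.5 FPKM in WT late, against 1.23 and 1.46 FPKM in WT early (2.21 ± 0.38, limma adjusted p = 0.0205). Without replicate 1 or replicate 2 of WT early it did not pass (limma adjusted p = 0.118 and 0.154), and without replicate 2 of WT late 2 members passed, math-38 higher and bath-12 lower. In hrde-1 late it had 3.10 and 5.43 FPKM, against 0.628 and 0.845 FPKM in hrde-1 early, and in morc-1 late 4.81 and 7.37 FPKM, against 1.00 and 1.63 FPKM in morc-1 early. The late libraries were above the early ones in each strain, but neither mutant passed (limma adjusted p = 0.101 in hrde-1 and 0.143 in morc-1).

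The most abundant first-block member, bath-42, had 60.9 and 82.6 FPKM in WT late, against 157 and 192 FPKM in WT early (-1.28 ± 0.32, limma adjusted p = 0.0587). The median of all genes in WT late against WT early was -0.31, and the members' median was -0.32. In the same comparison 5 of 12 intestine markers were higher and 1 was lower (sums of 12437 to 15094 FPKM in WT late and 3676 to 4173 FPKM in WT early), and 4 of 12 oocyte markers were lower (3373 to 3808 FPKM in WT late and 4372 to 6154 FPKM in WT early). Their part in the change of math-38 was not tested. In hrde-1 late against hrde-1 early limma called 0 members (4 higher and 11 lower at an unadjusted p under 0.05; 0.599% of all genes rose and 0.108% fell). In morc-1 late against morc-1 early it also called 0 (4 higher and 2 lower unadjusted; 0.368% of all genes rose and 0.0794% fell). With the block within each generation, 3 members were higher and 11 lower in hrde-1, where all genes gave 1090 higher and 2878 lower. In morc-1 that fit called 2 members higher and 1 lower, where all genes gave 290 higher and 655 lower. Here too its p-values leave out the spread between replicate numbers. The test of whether the late change differed between a mutant and WT called 0 members for either mutant, with 0 higher and 2 lower for hrde-1 and 3 higher and 0 lower for morc-1 at an unadjusted p under 0.05. Over all genes it called 0.0217% higher and 0.0794% lower for hrde-1, and 0% in each direction for morc-1.

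The listed partners of these adaptors gave no calls. All 14 listed genes of the CUL-3 core and its regulation were measured, among them cul-3, the RING protein gene rbx-1, the ubiquitin-like modifier gene ned-8 and 6 genes of the COP9 signalosome, and 0 of 14 were called in any of the 8 comparisons. The cul-3 gene had 91.6 and 102 FPKM in hrde-1 late, 83.9 and 91.4 FPKM in morc-1 late, and 67.2 and 79.4 FPKM in WT late. Of the list of other BTB adaptors and MEL-26 substrates 9 of 11 genes were measured and 0 were called. The mel-26 gene had 37.8 and 96.8 FPKM in hrde-1 late, 79.9 and 87.8 FPKM in morc-1 late, and 53.6 and 63.7 FPKM in WT late.

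Small RNA was listed for 32 members, 21 bath and 11 math. Values are reads divided by 1 size factor per library, called normalized reads here; the libraries were made with a polyphosphatase, so that RNA with a 5′ triphosphate, as 22G RNA has, is captured. Levels over the 16 libraries averaged from 16.9 for bath-35 to 5842 for bath-20, with a median of 223. After bath-20 came bath-45 (4704), math-48 (1740), bath-23 (1585) and math-47 (1242), of which bath-23 and math-47 are pseudogenes in RefSeq. The 3 genes listed in small RNA alone were low in mRNA: math-48 averaged 0.198 FPKM, math-43 0.150 FPKM and math-50 0.00708 FPKM. All 32 passed the minimum mean of 10 normalized reads, none of them through the mutants alone.

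In hrde-1 mutants the small RNA of most listed members fell. In hrde-1 late against WT late, limma called 24 of 32 members lower and 3 higher, where 53% of all 2349 features tested were lower and 18.3% higher. The median was -2.10 over the members and -1.08 over all features tested. The members called lower were bath-1, bath-7, bath-10, bath-11, bath-12, bath-13, bath-14, bath-15, bath-18, bath-20, bath-21, bath-22, bath-24, bath-29, bath-31, bath-34, bath-35, bath-41, bath-45, math-1, math-41, math-43, math-47 and math-50, with differences of -4.52 to -0.78. In hrde-1 early against WT early, 19 were lower and 1 higher, where 42% of all features were lower and 12.8% higher.

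Scaling changes how many features stand on each side. In hrde-1 late, all features tested gave 431 higher and 1246 lower calls as deposited, 840 and 684 with quantile normalization, 714 and 1023 with edgeR and 818 and 886 with DESeq2. The members gave 3 higher and 24 lower as deposited, 9 and 18 with quantile normalization, 7 and 21 with edgeR and 7 and 20 with DESeq2. Of the 24 members lower as deposited, 18 were called lower under each of these 4 scalings, and the exceptions were bath-31, bath-35, bath-41, math-41, math-43 and math-50. In hrde-1 early the members gave 1 higher and 19 lower as deposited, 6 and 11 with quantile normalization, 5 and 15 with edgeR and 5 and 14 with DESeq2, and 11 were lower under all 4. All features tested in hrde-1 early gave 300 higher and 986 lower as deposited, 793 and 496 with quantile normalization, 519 and 786 with edgeR and 571 and 675 with DESeq2.

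**Figure D3:**
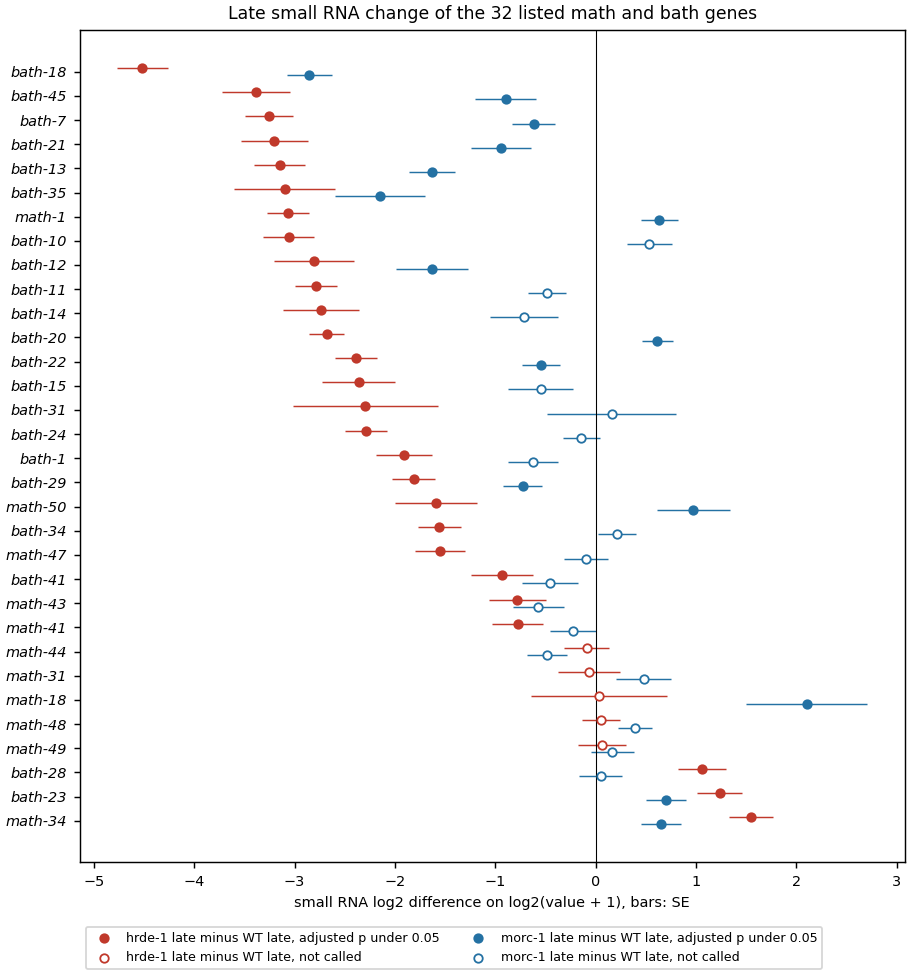
Small RNA log2 differences of the 32 listed math and bath genes in hrde-1 late minus WT late (red) and morc-1 late minus WT late (blue), with bars of 1 SE and filled points for limma adjusted p under 0.05. In red 24 points are called below 0 and 3 above it, and in blue 9 are called below 0 and 6 above it.

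The largest fall was in bath-18, with 4.20 and 6.18 normalized reads in hrde-1 late, against 123, 136 and 162 in WT late (-4.52 ± 0.25, SE; limma adjusted p = 4.48e-09). In bath-45, hrde-1 late libraries had 510.3 and 512 normalized reads, against 5037, 5341 and 5713 in WT late (-3.39 ± 0.34, limma adjusted p = 1.28e-06). In bath-13, hrde-1 late libraries had 47.1 and 51.2 normalized reads, against 409, 429 and 496 in WT late (-3.15 ± 0.25, limma adjusted p = 1.56e-07). Each of these groups lay apart, and all 3 falls were called under all 4 scalings.

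The math-1 gene had 20.3 and 22.7 normalized reads in hrde-1 late, against 175, 179 and 209 in WT late (-3.07 ± 0.21, limma adjusted p = 3.13e-08), and it was as low in hrde-1 early, at 23.1 and 32.3, against 234, 254 and 256 in WT early. The bath-20 gene had 889 and 901 normalized reads in hrde-1 late, against 5239, 5986 and 6060 in WT late (-2.68 ± 0.17, limma adjusted p = 1.40e-08). In hrde-1 early bath-20 stood higher, at 2905 and 3050 normalized reads, against 6620, 6932 and 7089 in WT early. The late and early hrde-1 libraries of bath-20 did not overlap, and those of math-1 lay within 1 normalized read of each other at their nearest.

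The neighbours of math-1 fell with it in hrde-1 late. In bath-24, hrde-1 late libraries had 194 and 279.8 normalized reads, against 1109, 1135 and 1180 in WT late (-2.29 ± 0.21, limma adjusted p = 5.10e-07). In bath-14, a pseudogene, hrde-1 late libraries had 22.9 and 30.3 normalized reads, against 143, 202 and 206 in WT late (-2.74 ± 0.38, limma adjusted p = 2.15e-05). Of the 3 genes in this run, math-1 alone rose in mRNA: bath-24 had 7.57 and 12.3 FPKM in hrde-1 late, against 6.89 and 7.28 FPKM in WT late, and did not pass. In bath-21, hrde-1 late libraries had 20.2 and 20.3 normalized reads, against 171, 179.99 and 239.7 in WT late (-3.20 ± 0.33, limma adjusted p = 1.62e-06), and its mRNA was at 3.83 and 7.76 FPKM in hrde-1 late, against 2.07 and 3.72 FPKM in WT late.

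A small group went the other way. The pseudogene bath-23 had 2590 and 2731 normalized reads in hrde-1 late, against 827, 1303 and 1338 in WT late (1.23 ± 0.22, limma adjusted p = 2.23e-04). In math-34, hrde-1 late libraries had 204 and 214 normalized reads, against 58.5, 68.9 and 88.3 in WT late (1.55 ± 0.22, limma adjusted p = 2.68e-05). In bath-28, hrde-1 late libraries had 1209 and 1267 normalized reads, against 435, 661 and 723 in WT late (1.06 ± 0.24, limma adjusted p = 0.00138). These 3 were above every WT late library, and each was called higher under all 4 scalings. The neighbours bath-23 and bath-10 moved apart: bath-10 had 45.01 and 53.0 normalized reads in hrde-1 late, against 342, 441 and 474 in WT late (-3.06 ± 0.25, limma adjusted p = 1.76e-07).

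In morc-1 late against WT late, 6 of 32 members were higher in small RNA and 9 lower, where 19.8% of all features tested were higher and 25.4% lower. The medians were -0.34 over the members and -0.33 over all features. The members gave 7 higher and 5 lower with quantile normalization, 9 and 7 with edgeR and 11 and 4 with DESeq2, so the direction of the majority depended on the scaling. Over all features the calls were 464 higher and 597 lower as deposited, 599 and 442 with quantile normalization, 546 and 680 with edgeR and 645 and 540 with DESeq2. The count of 15 members was 8 without replicate 1 of WT late and 7 without library a.

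The falls in morc-1 that held under all 4 scalings were those of the adjoining genes bath-12, bath-13 and bath-18. In bath-18, morc-1 late libraries had 13.7, 20.4 and 22.2 normalized reads, against 123, 136 and 162 in WT late (-2.85 ± 0.23, limma adjusted p = 6.99e-07). In bath-13, morc-1 late libraries had 92.3, 150 and 206 normalized reads, against 409, 429 and 496 in WT late (-1.63 ± 0.23, limma adjusted p = 9.85e-05). In bath-12, morc-1 late libraries had 25.1, 54.4 and 57.4 normalized reads, against 123, 135 and 147 in WT late (-1.63 ± 0.36, limma adjusted p = 0.00260). For each of the 3, every morc-1 late library was below every WT late library.

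At the early stage 2 of these 3 genes passed. In morc-1 early against WT early 2 of 32 members were called, both lower, where 11.5% of all features tested were lower and 4.3% higher; they were bath-18 and bath-12, and both held under all 4 scalings. The third gene of the run, bath-13, did not pass (-0.66 ± 0.23, limma adjusted p = 0.0659). In bath-18, morc-1 early libraries had 43.3, 43.9 and 51.1 normalized reads, against 132, 143 and 153 in WT early (-1.61 ± 0.23, limma adjusted p = 3.49e-04). In bath-12, morc-1 early libraries had 43.3, 73.4 and 118 normalized reads, against 150, 214 and 243 in WT early (-1.45 ± 0.36, limma adjusted p = 0.0135), which did not pass without replicate 2 of WT early (limma adjusted p = 0.0622). The lowest of each rested on 2 reads in the shallow replicate 1 of morc-1 early. Without replicate 3 of WT early, or without replicate 3 of morc-1 early, 2 members were called higher beside these 2. In this comparison the members gave 5 higher and 3 lower with quantile normalization, 2 and 2 with edgeR and 3 and 2 with DESeq2. Over all features the calls were 101 higher and 271 lower as deposited, 444 and 263 with quantile normalization, 157 and 300 with edgeR and 284 and 259 with DESeq2.

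The other falls in morc-1 late were bath-7, bath-21, bath-22, bath-29, bath-35 and bath-45, of -2.15 to -0.55 in limma, and none of these 6 was called under all 4 scalings. In bath-45, morc-1 late libraries had 1809, 2222 and 5914 normalized reads, against 5037, 5341 and 5713 in WT late, so library b stood above the WT libraries (-0.90 ± 0.31, limma adjusted p = 0.0282). The bath-45 fall did not pass without replicate 1 of WT late (limma adjusted p = 0.0635), replicate 2 of WT late (0.0775), replicate 1 of morc-1 late (0.136) or library a (0.124). In bath-35, morc-1 late libraries had 5.22, 5.70 and 6.24 normalized reads, against 24.9, 27.6 and 34.6 in WT late. That gene lies on chromosome I, away from the clusters of chromosome II.

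Some members fell in hrde-1 and not in morc-1, and their difference between the mutants was tested. In bath-20, hrde-1 late libraries had 889 and 901 normalized reads, against 7766, 8804 and 10021 in morc-1 late (-3.30 ± 0.17, limma adjusted p = 2.35e-09). In math-1, hrde-1 late libraries had 20.3 and 22.7 normalized reads, against 266, 300 and 312 in morc-1 late (-3.70 ± 0.21, limma adjusted p = 7.18e-09). In math-50, a pseudogene, hrde-1 late libraries had 11.5 and 13.5 normalized reads, against 61.8, 76.97 and 101 in morc-1 late (-2.57 ± 0.41, limma adjusted p = 1.72e-04). The levels of these 3 genes in morc-1 late were above those of every WT late library as well, for math-50 only narrowly. Its nearest libraries had 61.8 normalized reads in morc-1 late and 61.4 in WT late, where 1 read was worth 0.567 and 0.596.

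Against WT late, morc-1 late was higher by 0.62 ± 0.15 in bath-20 (limma adjusted p = 0.00566), 0.64 ± 0.19 in math-1 (0.0136) and 0.97 ± 0.37 in math-50 (0.0437). The rise of bath-20 did not pass with quantile normalization (0.20, limma adjusted p = 0.169), while those of math-1 and math-50 were called under all 4 scalings. Without replicate 1 of WT late, math-1 did not pass in limma (adjusted p = 0.0543). The rise of math-50 did not pass without replicate 1 (limma adjusted p = 0.0619) or replicate 3 (0.194) of WT late, or without replicate 1 (0.0835) or library a (0.161) of morc-1 late. The remaining rises in morc-1 late were bath-23, math-34 and math-18. In math-18, morc-1 late libraries had 29.4, 35.2 and 52.4 normalized reads, against 3.31, 8.35 and 17.4 in WT late, but WT early libraries had 16.1, 22.6 and 85.7. Its rise (2.10 ± 0.60) did not pass without replicate 1 of WT late (limma adjusted p = 0.0603) or without library a (0.0596), and those of bath-23 (0.0573) and math-34 (0.0752) did not pass without library a, nor that of math-34 without replicate 1 of WT late (0.0720).

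Over the whole list, hrde-1 late against morc-1 late gave 21 lower and 2 higher members of 32, where 40% of all features tested were lower and 15.8% higher. Of these 21, 15 were called lower under all 4 scalings, and both higher members, bath-28 and math-34, were called higher under all 4. The members gave 4 higher and 15 lower with quantile normalization and 5 and 18 with each of edgeR and DESeq2. Over all features the calls were 371 higher and 940 lower as deposited, 573 and 426 with quantile normalization, 686 and 637 with edgeR and 696 and 581 with DESeq2. The late comparisons of both mutants share the WT late libraries. Side by side, 9 members were lower in both, 2 higher in both, 3 lower in hrde-1 and higher in morc-1, 12 called lower in hrde-1 alone, 1 called higher in hrde-1 alone and 1 in morc-1 alone. The shares of all features with these patterns are not given here, so the counts do not show a trait particular to the members. The 4 called in neither were math-31, math-44, math-48 and math-49. Among them math-48 had 1498 and 1592 normalized reads in hrde-1 late, 1719, 1977 and 2190 in morc-1 late, and 1267, 1328 and 1950 in WT late, so each mutant overlapped WT late. The level of math-49 was 537 and 615 normalized reads in hrde-1 late, 576, 584 and 704 in morc-1 late, and 455, 534 and 687 in WT late.

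**Figure D4:**
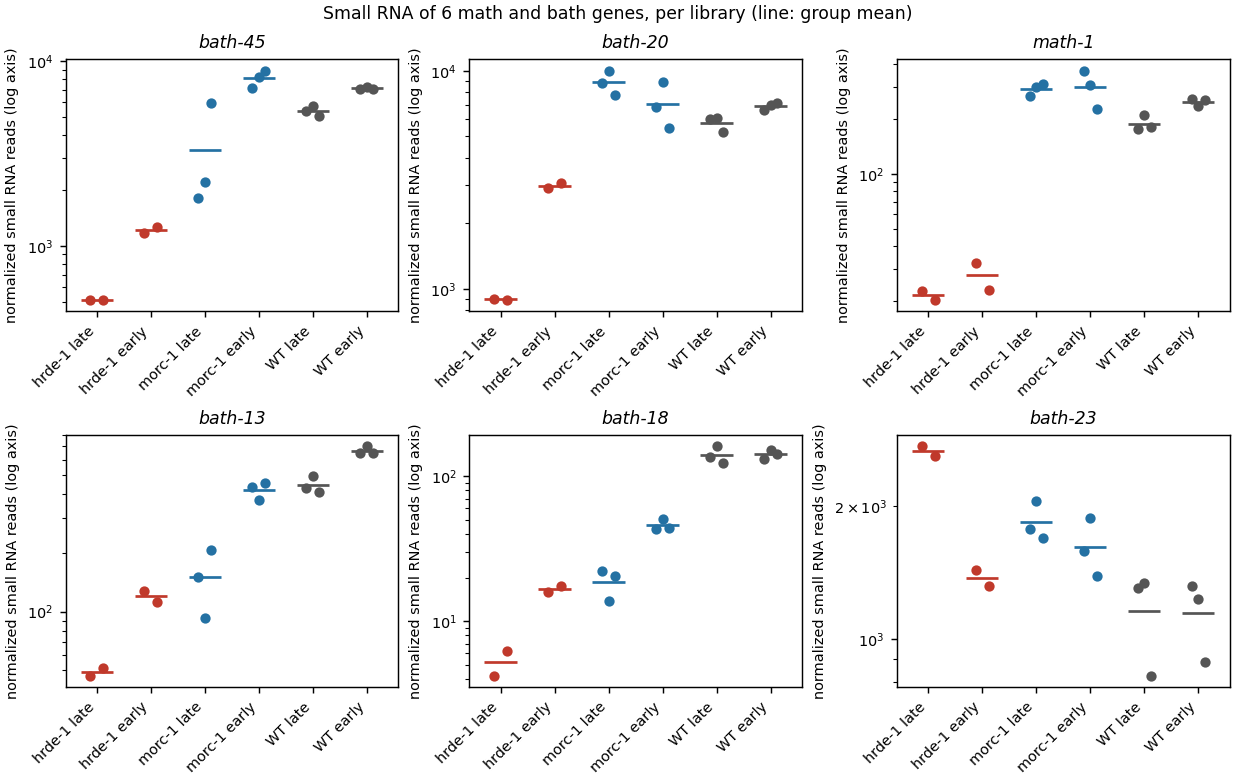
Normalized small RNA reads in each library (points) with the group mean (line), on log axes, for 6 math and bath genes, from hrde-1 late on the left to WT early on the right. The hrde-1 late libraries are the lowest in bath-45, bath-20, bath-13 and bath-18 and the highest in bath-23, and the morc-1 libraries of bath-13 and bath-18 lie below those of WT of the same stage.

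Over the generations, small RNA changed in the mutants. In WT late against WT early 0 of 32 members were called by limma, by edgeR and by DESeq2, with 0 higher and 3 lower at an unadjusted p under 0.05 in limma, where 0.0851% of all features tested were higher and 0.426% lower. In hrde-1 late against hrde-1 early, 14 members were lower and 1 higher, where 19.5% of all features tested were lower and 12.3% higher. The members gave 1 higher and 7 lower with quantile normalization and 4 and 10 with each of edgeR and DESeq2, and 7 were lower under all 4 scalings: bath-7, bath-10, bath-11, bath-15, bath-18, bath-20 and bath-22. Over all features the calls were 290 higher and 459 lower as deposited, 222 and 270 with quantile normalization, 551 and 383 with edgeR and 586 and 354 with DESeq2. In limma as deposited, leaving out any 1 of the 4 hrde-1 libraries lowered the count of 15 to 6 to 9: 9 without replicate 1 of hrde-1 late, 8 without replicate 2 of hrde-1 late, 8 without replicate 1 of hrde-1 early and 6 without replicate 2 of hrde-1 early.

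The gene with the largest fall over the generations in hrde-1 was bath-7, in a run of 10 family genes on chromosome II. It had 30.3 and 47.7 normalized reads in hrde-1 late, against 170 and 215 in hrde-1 early (-2.30 ± 0.26, limma adjusted p = 4.47e-05). In WT late it had 360, 374 and 383 normalized reads, against 357, 413 and 414 in WT early, so its WT ranges overlapped. The test of whether the late change differed between hrde-1 and WT called 8 members, 7 lower and 1 higher, where 10% of all features tested were lower and 10.3% higher.

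In morc-1 late against morc-1 early, 7 members were lower and 0 higher, where 8.68% of all features tested were lower and 1.79% higher. They were bath-13, bath-18, bath-22, bath-29, bath-35, bath-45 and math-44, and bath-13, bath-18, bath-29 and bath-45 were lower under all 4 scalings. The members gave 0 higher and 4 lower with quantile normalization and 1 and 6 with each of edgeR and DESeq2, and all features gave 42 higher and 204 lower as deposited, 62 and 122 with quantile normalization, 172 and 194 with edgeR and 209 and 195 with DESeq2. In bath-13, morc-1 late libraries had 92.3, 150 and 206 normalized reads, against 374, 433 and 458 in morc-1 early (-1.56 ± 0.23, limma adjusted p = 7.09e-04). The count of 7 was 3 without replicate 1 of morc-1 late and 3 without library a. The test of whether this change differed from that of WT called 0 members in limma, with 1 higher and 6 lower at an unadjusted p under 0.05, 2 lower in edgeR and 1 higher in DESeq2, where 0.639% of all features were higher and 1.15% lower in limma. Over all features this test called 15 higher and 27 lower as deposited, 23 and 21 with quantile normalization, 41 and 44 with edgeR and 81 and 42 with DESeq2. Without library b 3 members were called, all lower, and without replicate 2 of morc-1 early 1 was called, bath-20, higher.

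Set side by side, each member whose mRNA rose in a mutant against WT was listed in the small RNA table and was lower there in the same comparison; math-38, which rose between the WT stages, is not listed there. In hrde-1 late against WT late, 22 of the 29 genes in both tables were lower in small RNA, and 4 of these 22 rose in mRNA. The other 18 were not called in mRNA, with differences of -0.33 for math-41 to 0.77 for bath-21 outside the second block. The 3 members higher in small RNA were not called in mRNA, at 0.56 for bath-23, -0.34 for bath-28 and -0.21 for math-34. The overlap of the calls in the 2 assays was not tested, and its share over all genes in both assays is not given here. Of the members that rose, math-1 passed the level of 0.5 FPKM only through the mutant libraries. The bath-45 small RNA in morc-1 late had 1 library, at 5914 normalized reads, above every WT late library.

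In hrde-1 early, 18 of the 29 were lower in small RNA and 3 of these rose in mRNA. In morc-1 late, 9 were lower, of which bath-45 rose in mRNA, and 5 were higher, of which 0 were called in mRNA. That bath-45 rise did not hold with single libraries left out, and its small RNA fall was not called by edgeR or DESeq2. For these comparisons too the overlap of calls was not tested, and its share over all genes is not given. For bath-20 and math-1 the small RNA of the mutants lay on opposite sides of WT. Both had more small RNA than WT in morc-1 late, as deposited, and there their mRNA was 0.910 and 1.40 FPKM for bath-20, against 0.489 and 1.15 FPKM in WT late, and 0.832 and 0.864 FPKM for math-1, against 0.170 and 0.221 FPKM in WT late. Thus the math-1 libraries of morc-1 late were above those of WT late in both assays, although the mRNA difference did not pass (0.63 ± 0.29, limma adjusted p = 0.484). In hrde-1 late, where both had less small RNA than WT, their mRNA was 3.06 and 8.51 FPKM for bath-20 and 1.06 and 2.23 FPKM for math-1. The mRNA difference between the mutants passed for neither in limma (adjusted p = 0.0606 and 0.525).

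**Figure D5:**
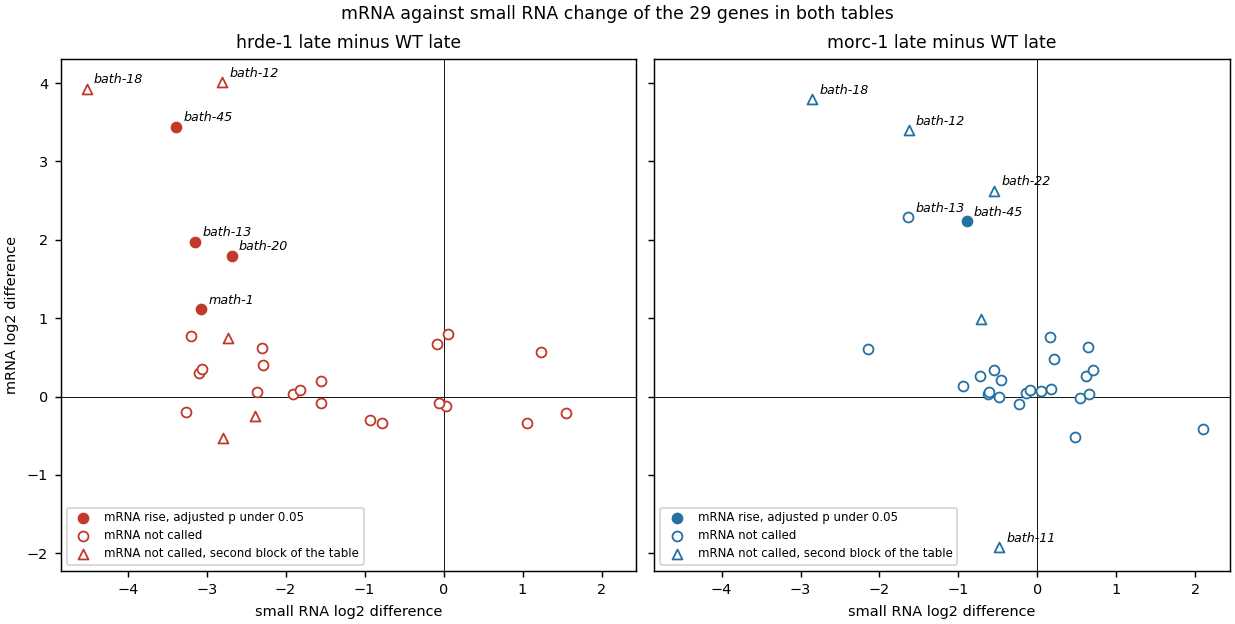
For the 29 math and bath genes in both tables, the mRNA log2 difference (vertical) against the small RNA log2 difference (horizontal), for hrde-1 late minus WT late (left) and morc-1 late minus WT late (right). Filled points rose in mRNA with limma adjusted p under 0.05, and all of them lie left of 0, as do many genes whose mRNA was not called; triangles are genes of the second block of the mRNA table.

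Of the 25 genes on both lists, kel-1 and kel-8, which encode kelch-type BTB proteins, were listed in small RNA, while cul-3 and mel-26 were not. In all, 2434 features were listed in small RNA, beside 21976 genes in mRNA, so most genes are not listed there. The kel-1 gene had 9702 and 10079 normalized reads in hrde-1 late, 3363, 3508 and 4479 in morc-1 late and 1847, 2384 and 2721 in WT late. The kel-8 gene had 6.73 and 12.4 normalized reads in hrde-1 late, 5.87, 6.81 and 6.84 in morc-1 late and 82.2, 110 and 117 in WT late. Both mutants thus stood apart from WT late at each gene, upward for kel-1 and downward for kel-8 as deposited. The mRNA of both genes was not called in any comparison. The kel-8 mRNA had 12.8 and 16.01 FPKM in hrde-1 late and 16.07 and 19.98 FPKM in morc-1 late. Its WT late libraries had 25.4 and 37.0005 FPKM, so neither mutant overlapped WT late. The limma differences from WT late were -1.05 ± 0.304 in hrde-1 late (adjusted p = 0.0605) and -0.74 ± 0.304 in morc-1 late (0.45). For kel-1 mRNA these differences were -0.08 and -0.53.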

How the data were processed

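Polyadenylated mRNA was measured in 12 libraries and small RNA in 16, and the deposited tables were used without realignment. Per the submitters' processing notes, mRNA was made with Trimmomatic 0.35 and TopHat2, and small RNA with DESeq2. No source used here gives the genome build or the counting step. The authors' mRNA values were read as FPKM. Their table names them normalized counts, and that they are not whole does not settle the unit. The authors' deposited small RNA signal is reads divided by 1 size factor per library: all values were whole within 0.02 reads. RefSeq WBcel235 gave names, biotypes and neighbours only. The chromatin table, which names no genes, was not analysed here.

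Members and lists were chosen with earlier results of these data known. limma 3.58.1 (R 4.3.3) was fitted to log2(value + 1) with group means, over 13850 genes with a mean of at least 0.5 FPKM and 2349 small RNA features with a mean of at least 10, with Benjamini-Hochberg adjusted p under 0.05. Named genes were members called, the 8 highest in mRNA, those in both tables and those listed in small RNA (beyond the main ones, by count and range), with at most 4 called genes per pathway list; where none was called, cul-3, mel-26, kel-1 and kel-8 were picked after their values were seen. Alternatives were quantile normalization, other pseudocounts and filters, replicate blocks, leaving out each library, and edgeR 4.0.16 and DESeq2 1.42.0 on recovered reads. Scripts were tested on simulated data. The number of libraries limits the precision of mRNA values, whose depth is unknown.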

Additional observations from a re-analysis of the deposited data

Results flagged for a closer look

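For 8 of the 32 members, the change from early to late in small RNA differed between hrde-1 and WT by a test of the difference itself in limma. The difference of changes was -2.22 for bath-7, -1.69 for bath-15, -1.66 for bath-22, -1.58 for bath-11, -1.50 for bath-18, -1.47 for bath-20, -1.44 for bath-10 and 0.952 for bath-23, on the log2 scale. As a share of all features tested, 10% were called lower and 10.3% higher, that is 243 higher and 235 lower as deposited, 103 and 146 with quantile normalization, 405 and 245 with edgeR and 446 and 217 with DESeq2. Each fall but that of bath-15, and the rise of bath-23, was called under all 4 scalings. The genes bath-7 and bath-11 lie in the same run on chromosome II, and bath-10 and bath-23, which changed in opposite directions, are neighbours. The count of 8 was 4 without replicate 1 or replicate 2 of hrde-1 early, and 5 without replicate 2 of hrde-1 late.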

How the results depend on the processing

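Counts are of members called. In mRNA, a minimum of 10 FPKM, which drops bath-45, bath-20 and math-1 but keeps bath-13, gave 0 in morc-1 late against WT late (1 in the report), 0 in hrde-1 early (3) and 1 in hrde-1 late (4). Without a filter the counts were 0 in morc-1 late, 1 in hrde-1 late against morc-1 late (0) and 1 in hrde-1 late against hrde-1 early (0). Quantile normalization gave 2 in morc-1 late, 7 in hrde-1 late (where the median of all genes was -0.07, and 0.14 as deposited), 1 in hrde-1 late against morc-1 late, 5 in WT late against early (1) and 1 in morc-1 late against early (0). A pseudocount of 0.1 gave 2 in WT late against early. Leaving out 1 library gave 0 to 1 in morc-1 late, 1 in each case in hrde-1 early, 1 to 5 in hrde-1 late, 0 to 1 in hrde-1 late against morc-1 late, 0 to 2 in WT late against early, 0 to 4 in hrde-1 late against early and 0 to 1 for the hrde-1 difference of changes.

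In small RNA, morc-1 early (2) gave 8 with quantile normalization, 4 with edgeR and 5 with DESeq2; the counts with quantile normalization were 4 from morc-1 early to late (7) and 8 from hrde-1 early to late (15). The morc-1 difference of changes (0) gave 2 with edgeR and 1 with DESeq2. Leaving out 1 library gave 2 to 4 in morc-1 early, 7 to 19 in morc-1 late (15), 3 to 10 in morc-1 late against early, 6 to 9 in hrde-1 late against early, 0 to 3 for the morc-1 and 4 to 8 for the hrde-1 difference of changes. Some called falls turned positive under quantile normalization: math-50 (0.10) and bath-22 (0.0256) in hrde-1 early, and bath-41 (0.15), math-43 (1.09), math-50 (0.25) and math-41 (0.77) in hrde-1 late. With DESeq2, math-43 (0.0863) and math-41 (0.0685) did so in hrde-1 late. The cause was not tested. Of the 117 small RNA calls, 81 held with quantile normalization, 100 with edgeR and 95 with DESeq2. Over all features in hrde-1 late the median was -1.08 as deposited, 0.11 with quantile normalization, -0.46 with edgeR and -0.23 with DESeq2.

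The labels do not say that replicate numbers mark shared cultures. Same-numbered libraries correlated in their deviations at -0.217 to 0.439 in mRNA (6 of 15 pairs over 0.1, all 6 of them within a stage) and -0.456 to 0.631 in small RNA (11 of 28). The mRNA pairs within a stage numbered 6 in all, at 0.308 to 0.439. Of 11 small RNA pairs within a stage 7 were over 0.1. The main fits take no account of this pairing. With the replicate number as a block, mRNA gave 0 in morc-1 late, 4 in hrde-1 early and 3 in hrde-1 late (math-1 then had a limma adjusted p of 0.0561), and small RNA 6 in morc-1 early, 6 in morc-1 late (0 higher and 6 lower, so that all 6 rises and the falls of bath-7, bath-12 and bath-21 were lost), 3 between the morc-1 stages and 1 for the morc-1 difference of changes, with the 2 unnumbered libraries left out. A block within each generation gave in mRNA 2 in morc-1 late, 4 in hrde-1 early, 6 in hrde-1 late (4 higher, and bath-46 and bath-47 lower), 3 in hrde-1 late against morc-1 late, 19 in WT late against early (5 higher, 14 lower), 3 in morc-1 late against early and 14 in hrde-1 late against early. Over all genes this block called 196 higher and 43 lower in morc-1 late, and 143 and 14 in hrde-1 early. The calls were 1742 higher and 527 lower in hrde-1 late, and 1112 and 298 in hrde-1 late against morc-1 late. Between the stages they were 1171 higher and 4066 lower in WT, 290 and 655 in morc-1, and 1090 and 2878 in hrde-1. These calls between stages leave the spread between replicate numbers out of the error.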

Other observations

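Below the level of 0.5 FPKM, math-43, a pseudogene in RefSeq and the only family gene on chromosome X, was at 0.509 and 0.747 FPKM in hrde-1 late and at 0 in both WT late libraries, 0 in both hrde-1 early libraries and 0 and 0.248 FPKM in morc-1 late. It was called higher in hrde-1 late when no filter was applied. In small RNA math-43 had 16.8 and 18.5 normalized reads in hrde-1 late, against 27.4, 32.99 and 33.1 in WT late. That small RNA difference turned positive with quantile normalization and with DESeq2, so its direction depended on the scaling. The math-43 values lie near the lower end of both tables.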
